A study of Mus musculus with 8 samples.

Results

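Mitochondrial ribosomal protein genes are nuclear genes, named Mrpl for the large and Mrps for the small subunit of the ribosome inside mitochondria. They were taken as every non-control spot on the arrays whose gene name was Mrpl or Mrps followed by a digit, with the brightest probe standing for a gene that had several. The rule found 76 genes (47 Mrpl, 29 Mrps) on 126 probes, of 27339 genes named on the array. All 76 were among the 14806 genes bright enough to be tested, and each was well above background in both colours on all 8 arrays, with 0 saturated spots. The filter on dim probes therefore chose none of them by treatment.

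The cells were RAW 264.7, a macrophage-like line derived from BALB/c mice. They were exposed for 1, 2, 4 or 6 h to one of 2 bacterial strains, Lactobacillus acidophilus MTCC-10307 or Bacillus clausii MTCC-8326, at 100 bacteria per cell. Each of the 8 two-colour arrays set RNA of exposed cells, in red, against RNA of untreated cells of the same time point, in green, and the RNA of 3 cultures was pooled per sample. There was 1 array for each bacterium and time, and the main fit held terms for bacterium and time. Its SEs and p-values rest on how far the 2 bacteria disagreed within times, beyond a constant difference, pooled over all 8 arrays. They do not measure the spread over a bacterium's own 4 arrays or between separate cultures. The 4 L. acidophilus arrays lay on 1 slide and the 4 B. clausii arrays on another, so slide and bacterium cannot be told apart. Treated RNA was always red, so in a mean response a probe's own dye effect and an effect of the bacteria cannot be told apart. It is not stated whether the 2 strains had untreated cultures in common, so values for the 2 bacteria are given side by side. On each array 39.6% to 51.5% of probes were well above background in a channel, and the SD between repeated spots of 1 probe was 0.0967 to 0.13 log2 units. Of 11 macrophage markers 10 were detected in untreated RNA on all 8 arrays, and of 22 markers of 6 other cell types 1 was.

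Mitochondria translate only the few proteins encoded by their own genome, all of them membrane subunits of the respiratory chain and ATP synthase. The ribosomal RNAs come from the mitochondrial genome, whereas every ribosomal protein is made in the cytosol and imported. Many of the proteins descend from those of the bacterial ribosome, and the rest were gained in evolution of the mitochondrial particle. Transcription of these genes is commonly linked to nuclear respiratory factor 1 (NRF-1) and to factors of the ETS family such as GA-binding protein.

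The promoters of 7 members are printed, since the results turn on these genes: Mrps23, Mrps15, Mrpl9 and Mrpl12, which were among the members with the largest mean falls, Mrpl10 and Mrpl36, which were among those higher late than early, and Mrpl49, the member that was lower late by the largest amount. The sequences are the 130 bases just before the transcription start in RefSeq (build GRCm38.p6), 5′ to 3′ on the gene's strand. Capitals mark the letters of 4 motifs searched on both strands: CGGAAG (ETS core), GCGCANGCG (NRF-1), AANATGGCG (YY1) and CACGTG (E-box).
Mrps23 (chr11:88204258-88204387, plus strand): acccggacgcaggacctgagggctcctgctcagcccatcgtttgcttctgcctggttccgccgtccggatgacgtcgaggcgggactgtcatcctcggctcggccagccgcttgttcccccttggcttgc
Mrps15 (chr4:126046798-126046927, plus strand): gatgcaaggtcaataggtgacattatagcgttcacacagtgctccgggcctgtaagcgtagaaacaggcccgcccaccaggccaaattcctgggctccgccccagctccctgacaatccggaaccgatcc
Mrpl9 (chr3:94443206-94443335, plus strand): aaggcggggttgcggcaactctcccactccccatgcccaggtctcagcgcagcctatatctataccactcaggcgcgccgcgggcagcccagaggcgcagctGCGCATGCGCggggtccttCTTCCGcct
Mrpl12 (chr11:120484507-120484636, plus strand): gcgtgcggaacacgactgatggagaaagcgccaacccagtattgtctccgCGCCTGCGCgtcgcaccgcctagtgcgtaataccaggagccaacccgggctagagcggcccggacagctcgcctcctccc
Mrpl10 (chr11:97041452-97041581, plus strand): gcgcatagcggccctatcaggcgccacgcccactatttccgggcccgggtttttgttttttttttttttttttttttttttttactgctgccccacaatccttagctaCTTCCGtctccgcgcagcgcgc
Mrpl36 (chr13:73330879-73331008, plus strand): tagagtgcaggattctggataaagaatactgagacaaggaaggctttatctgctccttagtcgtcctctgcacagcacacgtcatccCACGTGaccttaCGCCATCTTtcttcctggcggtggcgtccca
Mrpl49 (chr19:6057756-6057885, minus strand): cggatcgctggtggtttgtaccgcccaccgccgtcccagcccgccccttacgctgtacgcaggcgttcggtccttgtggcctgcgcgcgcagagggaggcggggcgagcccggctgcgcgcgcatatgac

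In these windows the NRF-1 letters lay 28 to 19 bases before the start of Mrpl9, with overlapping matches on both strands, and 80 to 72 bases before that of Mrpl12, on the other strand. Mrpl9 also held the ETS core 9 to 4 bases before its start and Mrpl10 held it 22 to 17 bases before. Mrpl36 held an E-box and the YY1 letters, and the windows of Mrps23, Mrps15 and Mrpl49 held none of the 4 motifs. RefSeq promoters matched 67 of the 76 members. The unmatched members were Mrpl4, Mrpl13, Mrpl15, Mrpl19, Mrpl38, Mrpl54, Mrps28, Mrps34 and Mrps35. Over the 250 bases before the start, 30 of the 67 members (44.8%) held the ETS core, against 15.3% of all 27025 genes with a RefSeq promoter. The NRF-1 letters stood in 12 of 67 (17.9%, against 5.86%), the YY1 letters in 2 (2.99%, against 1.29%) and the E-box in 5 (7.46%, against 6.86%). Of the 34 matched members that were lower in the mean response to B. clausii, 14 held the ETS core, and of the other 33, 16 did. A match of letters is a description of the sequence and not evidence of binding.

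In cells exposed to L. acidophilus, most mitochondrial ribosomal protein genes that responded were lower than in untreated cells, by small amounts. Over the 4 arrays 28 of the 76 members were lower and 6 were higher in the mean response at an adjusted p under 0.05 in limma, and 42 did not pass. Over all 14806 genes, 18.5% were lower and 23.7% higher by the same rule, or 42.2% either way. The members' shares were 36.8% lower and 7.89% higher. Their median log2 ratio was -0.07, against 0.02 over all genes. On single L. acidophilus arrays the members ranged from -0.52 to 0.76. In these bulk samples of 1 cell line, a change in some of the cells and a smaller change in all of them cannot be told apart. The lower calls took in both subunits, with 15 of 47 Mrpl and 13 of 29 Mrps genes lower, and 5 and 1 higher.

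With B. clausii the picture had the same direction. There 37 members were lower (48.7%), 5 were higher (6.58%) and 34 did not pass, while 21.1% of all genes were lower and 23.1% higher, 44.2% in all. The median of the members was -0.12, against 0.01 over all genes. Among Mrpl genes 23 of 47 were lower and 4 higher, and among Mrps genes 14 of 29 were lower and 1 higher. At 6 h of B. clausii the quartiles were -0.30 and 0.04 for the members and -0.16 and 0.18 for all genes, so the members lay lower over their whole middle range; this is a description with no test.

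**Figure D1:**
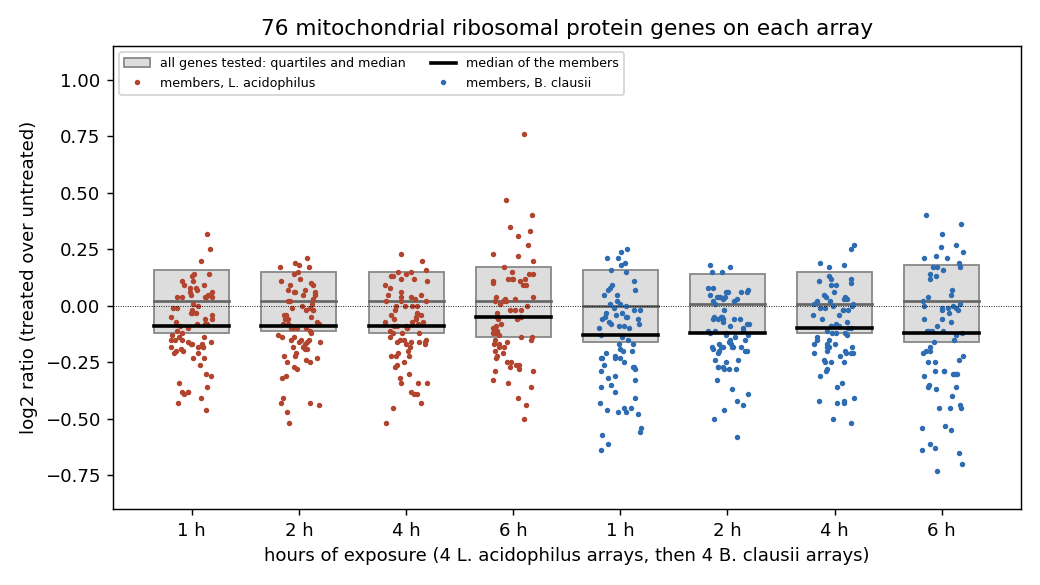
Log2 ratio of treated over untreated signal (vertical axis) of each of the 76 members (points) on the 8 arrays (horizontal axis, hours of exposure, L. acidophilus in red and B. clausii in blue). The black bar is the median of the members, and the grey box gives the quartiles and median of the 14806 genes tested. On every array the black bar lies below the grey median, at -0.05 to -0.13 against 0.00 to 0.02.

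On the single arrays the members' median was -0.09 at 1, 2 and 4 h of L. acidophilus and -0.05 at 6 h. It was -0.13, -0.12, -0.10 and -0.12 at 1, 2, 4 and 6 h of B. clausii. Between 57.9% (L. acidophilus, 6 h) and 75.0% (B. clausii, 1 h) of the members were below 0, while 45.9% to 49.9% of all genes were. The share below 0 was thus higher for the members on all 8 arrays. Size was modest throughout: 0 of 76 members reached a 2-fold difference on any array, a size that 1.65% of all genes reached on at least 1 array. At 1.5-fold there were 8 members (background 14.3% of all genes), and 6 of them passed it at 6 h of B. clausii, an array on which 6.19% of all genes did.

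**Figure D2:**
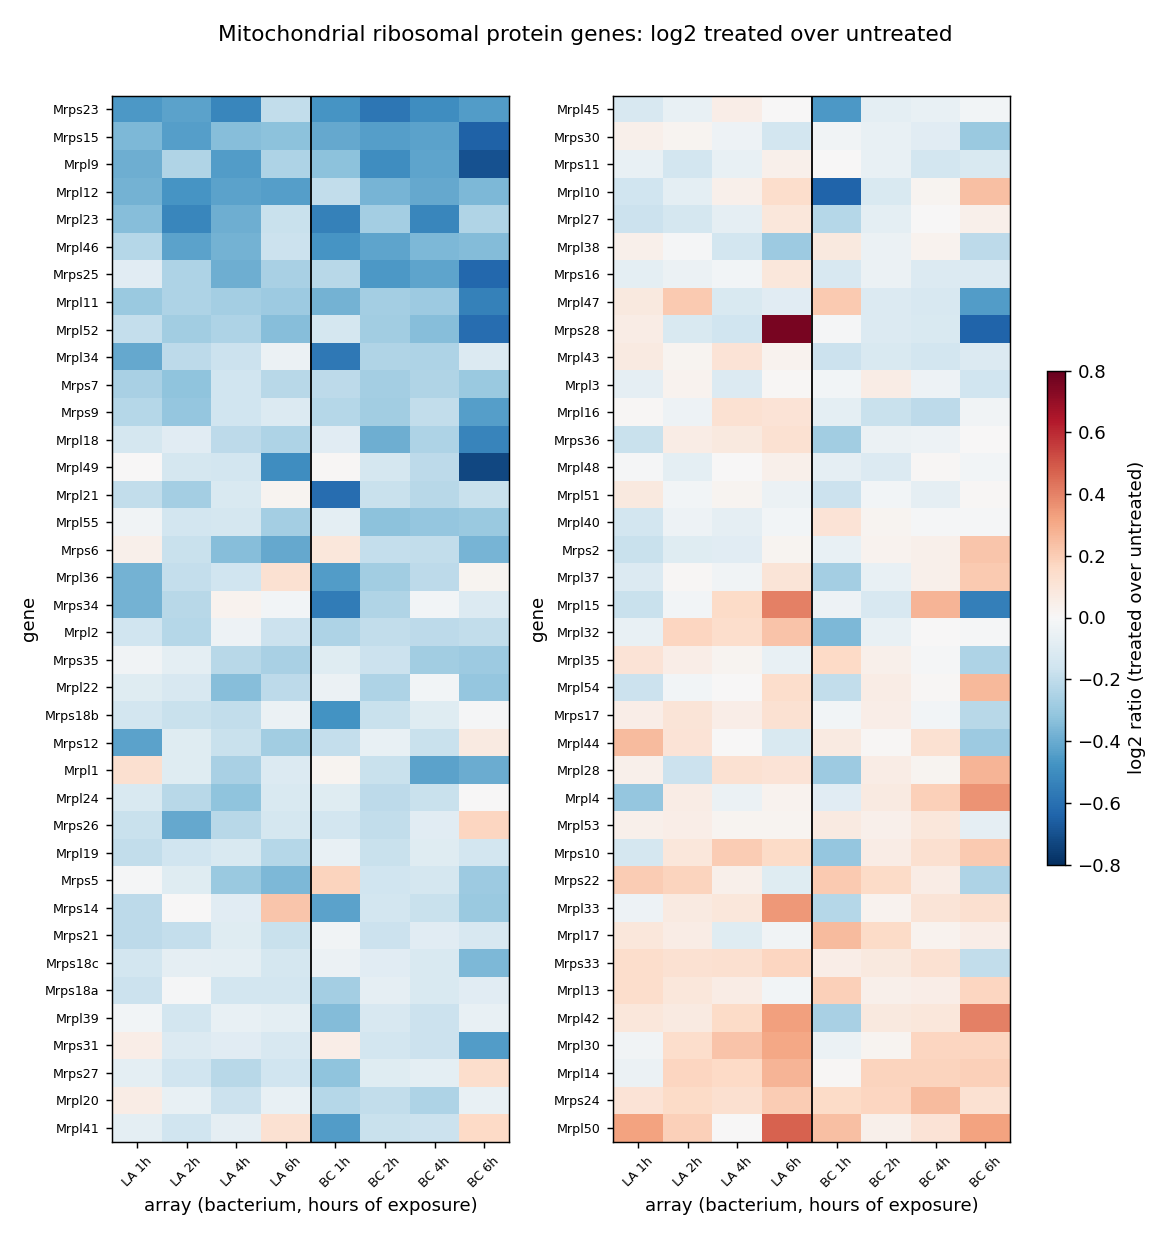
Heat map of the log2 ratio of treated over untreated signal for the 76 members (rows, ordered by the mean over 8 arrays, lowest at the top left) on 8 arrays (columns; LA is L. acidophilus, BC is B. clausii, with hours of exposure). Blue is lower and red higher in treated cells, on a scale of -0.8 to 0.8; Mrps23 heads the left panel and Mrpl50 ends the right one, and the dark red and dark blue cells of the right panel at 6 h are Mrps28.

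The lowest member was Mrps23, a small subunit protein without a bacterial counterpart, read by a probe placed at chr11:88018849-88023401 (mm9). Its log2 ratios were -0.46, -0.43, -0.52 and -0.20 at 1, 2, 4 and 6 h of L. acidophilus, and -0.47, -0.58, -0.50 and -0.45 with B. clausii. Other values on 4 arrays are given in the same order of time. All 8 arrays were below 0, and the 6 h array of L. acidophilus was the weakest. A second probe, without a value at 6 h of L. acidophilus, read -0.07, -0.24 and -0.52, then -0.04, -0.41, -0.20 and -0.80 with B. clausii. It was below 0 wherever it had a value, but near 0 at 1 h in both courses, unlike the probe used. By the probe used, the mean over 4 arrays was -0.40 ± 0.046 (SE from the limma fit to all 8 arrays, adjusted p = 0.000423) for L. acidophilus. It was -0.50 ± 0.046 (adjusted p = 8.72e-05) for B. clausii. Mrps15, the counterpart of a bacterial protein that binds the small ribosomal RNA early in assembly, read -0.36, -0.44, -0.34 and -0.33 with L. acidophilus, against -0.41, -0.44, -0.43 and -0.65 with B. clausii. Its values lay close together on 7 arrays and were lower at 6 h of B. clausii. The mean differences were -0.37 ± 0.048 (adjusted p = 0.000753) and -0.48 ± 0.048 (adjusted p = 0.000127). Mrps25, a small subunit protein gained in mitochondria, read -0.09, -0.25, -0.39 and -0.26 with L. acidophilus, against -0.22, -0.46, -0.42 and -0.63 with B. clausii. In both courses its 1 h array was the nearest to 0. Its means were -0.25 ± 0.048 (adjusted p = 0.00389) and -0.43 ± 0.048 (adjusted p = 0.00021).

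The large subunit carries a flexible stalk that recruits the translation factors, built from the products of Mrpl10, Mrpl11 and Mrpl12. Mrpl12, whose protein also binds the mitochondrial RNA polymerase, had the largest mean fall with L. acidophilus, -0.43 ± 0.04 (adjusted p = 0.000195). Its log2 ratios there were -0.38, -0.47, -0.43 and -0.44. With B. clausii they were -0.20, -0.37, -0.41 and -0.36, with a mean of -0.33 ± 0.04 (adjusted p = 0.000327). Mrpl12 was thus steady over time with L. acidophilus and nearer to 0 at 1 h of B. clausii than later. Mrpl11, which sits at the base of the stalk, was below 0 on all 8 arrays, from -0.54 to -0.25, with means of -0.28 ± 0.044 and -0.37 ± 0.044 (adjusted p = 0.00175 and 0.000301). Mrpl10, the third stalk gene, had mean responses of -0.01 ± 0.065 and -0.13 ± 0.065 that did not pass (adjusted p = 0.88 and 0.149) and changed with time, as given further on.

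Other large subunit members with a bacterial counterpart were also among the lowest. Mrpl9 read -0.39, -0.24, -0.45 and -0.25 with L. acidophilus, against -0.33, -0.50, -0.42 and -0.70 with B. clausii, with means of -0.33 ± 0.063 (adjusted p = 0.00366) and -0.49 ± 0.063 (adjusted p = 0.000439). Mrpl23, at the exit of the tunnel through which the new protein leaves, read -0.34, -0.52, -0.39 and -0.18 with L. acidophilus, against -0.54, -0.27, -0.52 and -0.24 with B. clausii. Both genes were below 0 on all 8 arrays, Mrpl9 lowest at 6 h of B. clausii and Mrpl23 nearest to 0 at 6 h in either course. The means of Mrpl23 were -0.36 ± 0.056 and -0.39 ± 0.056 (adjusted p = 0.00163 and 0.000734). Mrpl46, a protein of the central protuberance gained in mitochondria, ranged from -0.47 to -0.17 over the 8 arrays, with means of -0.30 ± 0.047 and -0.40 ± 0.047 (adjusted p = 0.00159 and 0.000281).

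The falls of Mrps23, Mrps15, Mrpl9, Mrpl46, Mrpl23 and Mrpl11 kept their call with either bacterium in all 25 alternative settings tried. So did those of Mrpl12 with L. acidophilus and of Mrps25 with B. clausii. The settings include fits with arrays left out and a looser threshold that cannot remove a call. The mean over probes could not change these values, as no other probe past the filter had a value on every array. No setting addressed the dye effect. Mrpl52 was lower as well, at -0.26 ± 0.048 and -0.34 ± 0.048 (adjusted p = 0.00312 and 0.000669), but its probes disagreed: a second, much dimmer probe gave 0.48 and 0.25, and the mean over probes turned the L. acidophilus value to 0.11.

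**Figure D3:**
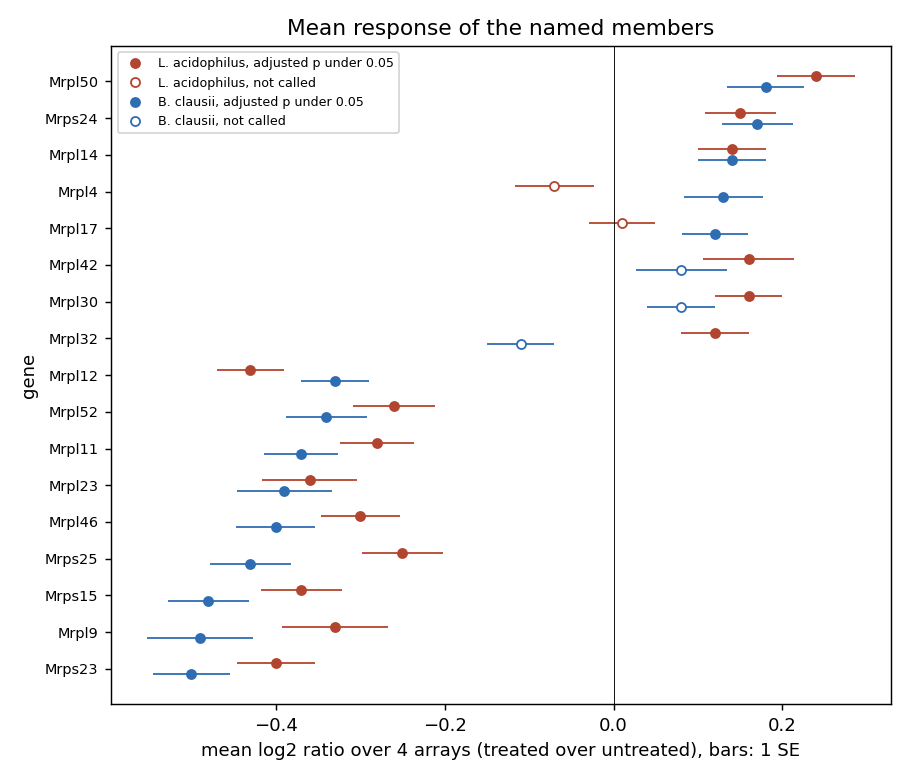
Mean log2 ratio of treated over untreated signal over the 4 arrays of each bacterium (horizontal axis, bars 1 SE) for the members with the largest called means in each direction (vertical axis). Filled points passed an adjusted p of 0.05 and open points did not; means run from -0.50 (Mrps23, B. clausii) to 0.24 (Mrpl50, L. acidophilus).

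Few members were higher. With L. acidophilus the 6 were Mrpl50 (0.24 ± 0.046, adjusted p = 0.00366), Mrpl30 (0.16 ± 0.04, 0.0111), Mrpl42 (0.16 ± 0.054, 0.0403), Mrps24 (0.15 ± 0.042, 0.0219), Mrpl14 (0.14 ± 0.04, 0.0231) and Mrpl32 (0.12 ± 0.04, 0.04). With B. clausii the 5 were Mrpl50 (0.18 ± 0.046, adjusted p = 0.0127), Mrps24 (0.17 ± 0.042, 0.00905), Mrpl14 (0.14 ± 0.04, 0.0207), Mrpl4 (0.13 ± 0.047, 0.048) and Mrpl17 (0.12 ± 0.039, 0.0364). Mrps24, counterpart of a bacterial small subunit protein, was the single member above 0 on all 8 arrays, reading 0.11, 0.15, 0.13 and 0.20 with L. acidophilus, against 0.15, 0.17, 0.25 and 0.12 with B. clausii. The share of all genes above 0 on all 8 arrays was not counted. A second, dimmer probe of Mrpl42 gave means of -0.10 with L. acidophilus and -0.33 with B. clausii. Some of the higher calls also changed sign with the processing. Taken from the Feature Extraction processed signals, Mrpl14 read -0.03 with either bacterium, and with each array centred on its median ratio in place of loess, Mrps24 read -0.01 and -0.27. Such centring moved the median of all genes to -0.08 for L. acidophilus and -0.25 for B. clausii, and that of the members to -0.22 and -0.56. It left 0 members higher and 41 lower with L. acidophilus, and 0 higher and 76 lower with B. clausii. Under it 59.1% to 66.2% of all genes were below 0 on the L. acidophilus arrays and 68.3% to 82.9% on the B. clausii arrays. These counts therefore cannot be read as particular to the members. Under all 26 settings, the members' median stayed below that of all genes, by 0.06 to 0.14 log2 units with L. acidophilus and by 0.10 to 0.31 with B. clausii; the settings share the same arrays.

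Mrpl50 shows how far the probe decides a value. The brighter probe, at chr4:49525602-49525661 (mm9), read 0.32, 0.19, 0.00 and 0.47 with L. acidophilus, against 0.24, 0.04, 0.11 and 0.32 with B. clausii. A second probe of the same transcript at chr4:49527089-49527148 read -0.02, -0.22, -0.41 and -0.08, then -0.08, -0.48, -0.36 and -0.76. To 2 decimals the brighter probe was at or above 0 and the second below 0 on all 8 arrays, and neither has been tied to a splice form here. Of the 76 members, 51 had 1 probe past the filter with a value on every array and 25 had several. In 14 of the 25 the probes' mean responses had opposite signs for at least 1 bacterium, and in 4 of the 14 they lay at least 0.5 apart, namely Mrpl52, Mrpl50, Mrps9 and Mrpl28. Mrpl28 had 0.02 and 0.01 by its brightest probe but -0.50 and -0.42 by the other. For Mrps9 the 2 brighter probes gave -0.20 and -0.29, and -0.09 and -0.25, against 0.35 and 0.07 for a probe that was well above background on 5 treated arrays and 0 untreated ones. Over these 25 members the median gap between the highest and lowest probe was 0.27 for L. acidophilus and 0.17 for B. clausii. The median responses of all 76 members were smaller in size, at -0.07 and -0.12. A gap has no sign, however, and the sets differ, so these are unlike measures.

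**Figure D4:**
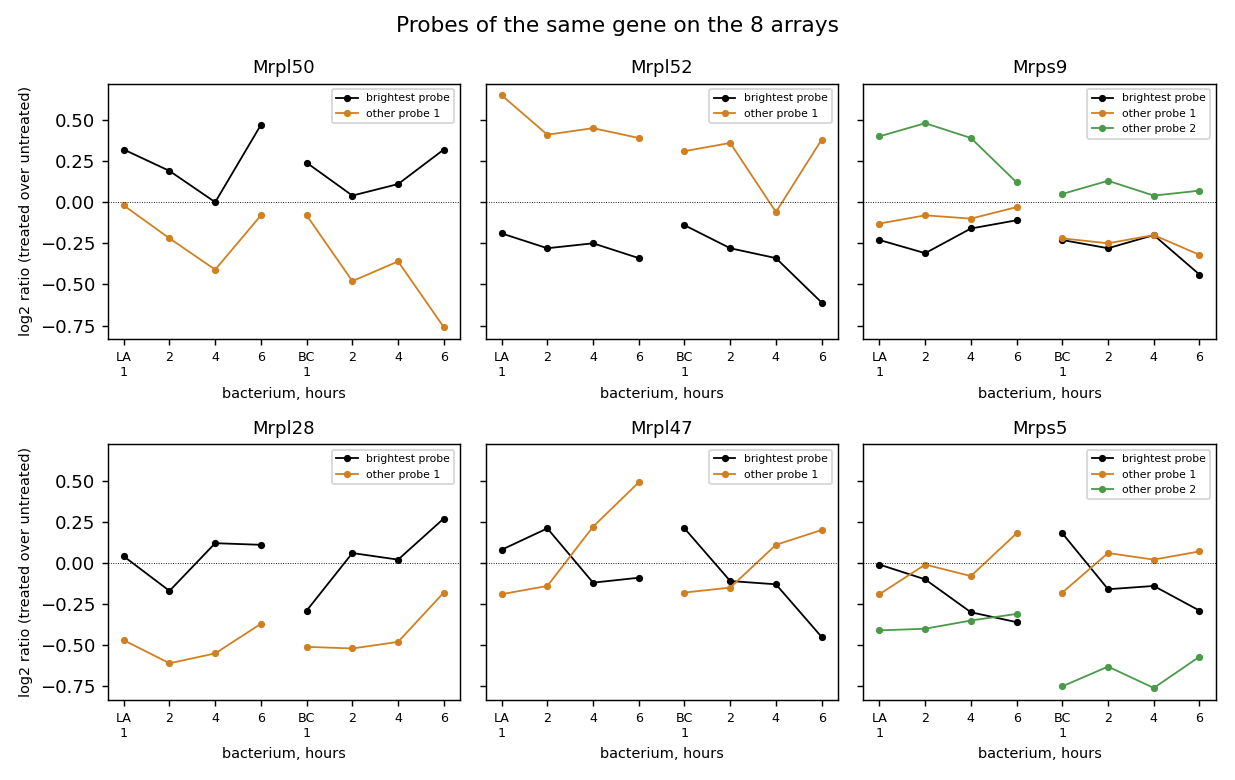
Log2 ratio of treated over untreated signal (vertical axis) on the 8 arrays (horizontal axis; LA is L. acidophilus, BC is B. clausii, with hours) for each probe past the filter of 6 members. Black is the brightest probe, which stands for the gene in the report; in Mrpl50, Mrpl52 and Mrpl28 the probes run apart on nearly every array, and in Mrpl47 they cross over time.

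By place in the ribosome, the lower calls were spread. Of 30 large subunit proteins with a bacterial counterpart, 12 were lower and 3 higher with L. acidophilus (median -0.07), and 16 and 3 with B. clausii (median -0.12). Of 19 large subunit proteins without one, a list that holds Mrps18a and Mrps30 because their products sit in the large subunit, 4 were lower and 2 higher, then 9 and 1 (medians -0.03 and -0.06). In the small subunit, 7 of 16 with a bacterial counterpart were lower and 1 higher, then 6 and 1 (medians -0.10 and -0.11). Of 10 without one, 5 and then 6 were lower and 0 higher (medians -0.15 and -0.19). Within the large subunit, 3 of 8 proteins around the tunnel exit were lower with L. acidophilus and 5 with B. clausii, and 3 of 7 in the central protuberance with either. With L. acidophilus the large subunit proteins without a bacterial counterpart were lower in 21.1%, near the share of all genes. No difference between these lists was tested. Mrps36, a member by name whose product is now known as a subunit of the 2-oxoglutarate dehydrogenase complex, is in none of them and read 0.02 ± 0.038 and -0.09 ± 0.038 (adjusted p = 0.674 and 0.0785).

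The design also asks whether the response differed between the bacteria. No member passed in L. acidophilus minus B. clausii (0 of 76 in limma at an adjusted p under 0.05; 0.642% of all genes did), and 55 of the 76 differences were positive, with a median of 0.07 against 0.01 over all genes. At an unadjusted p under 0.05 there were 9 members, against 22.8% of all genes. The member nearest to a call was Mrpl32, counterpart of a bacterial large subunit protein and known for being matured by the mitochondrial m-AAA protease before it joins the ribosome. It read -0.06, 0.17, 0.14 and 0.23 with L. acidophilus, against -0.36, -0.06, 0.00 and -0.01 with B. clausii, a difference of 0.23 ± 0.057 (adjusted p = 0.0971). Its values were higher with L. acidophilus at each of the 4 times. Mrpl43 read 0.07, 0.02, 0.11 and 0.03 with L. acidophilus, against -0.17, -0.12, -0.15 and -0.11 with B. clausii. The difference of 0.20 ± 0.057 did not pass (adjusted p = 0.116 in limma, unadjusted 95% interval 0.07 to 0.32). A second Mrpl43 probe read -0.10, -0.20, -0.21 and -0.30, against -0.01, -0.07, 0.06 and -0.38, and was not higher with L. acidophilus. In the other direction the smallest p was that of Mrpl4, with -0.20 ± 0.067 (adjusted p = 0.143). Centred on each array's median, 58 members were higher with L. acidophilus. The median of all genes also moved to 0.18 in the same direction, and that of the members to 0.37. The count of 58 therefore cannot be read as particular to the members.

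Time changed some members in opposite directions. In the response at 4 and 6 h minus that at 1 and 2 h, averaged over the bacteria, 9 members were higher (11.8%) and 6 lower (7.89%) at an adjusted p under 0.05 in limma. Among all genes 12.3% were higher and 12.3% lower, 24.6% in all, so the members' share was near the background or below it, and their median of 0.03 was close to the 0.00 of all genes. With each array centred on its median ratio the balance was another, with 22 members higher and 0 lower and a median of 0.22, against 0.08 over all genes. In that setting 28 of 81 subunits of oxidative phosphorylation were higher and 1 lower, so the balance was not particular to the members. The members' calls are not firm as a count: without both 1 h arrays 0 members passed, without both 6 h arrays 2, and by the processed signals 1. By the processed signals 0 of 78 cytosolic ribosomal protein genes and 0 of the 81 subunits of oxidative phosphorylation were called either way. In the main fit 17 and 13 of these were higher and 8 and 11 lower. The loss by processed signals was thus not particular to the members. For the fits without arrays the share of all genes is not given.

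**Figure D5:**
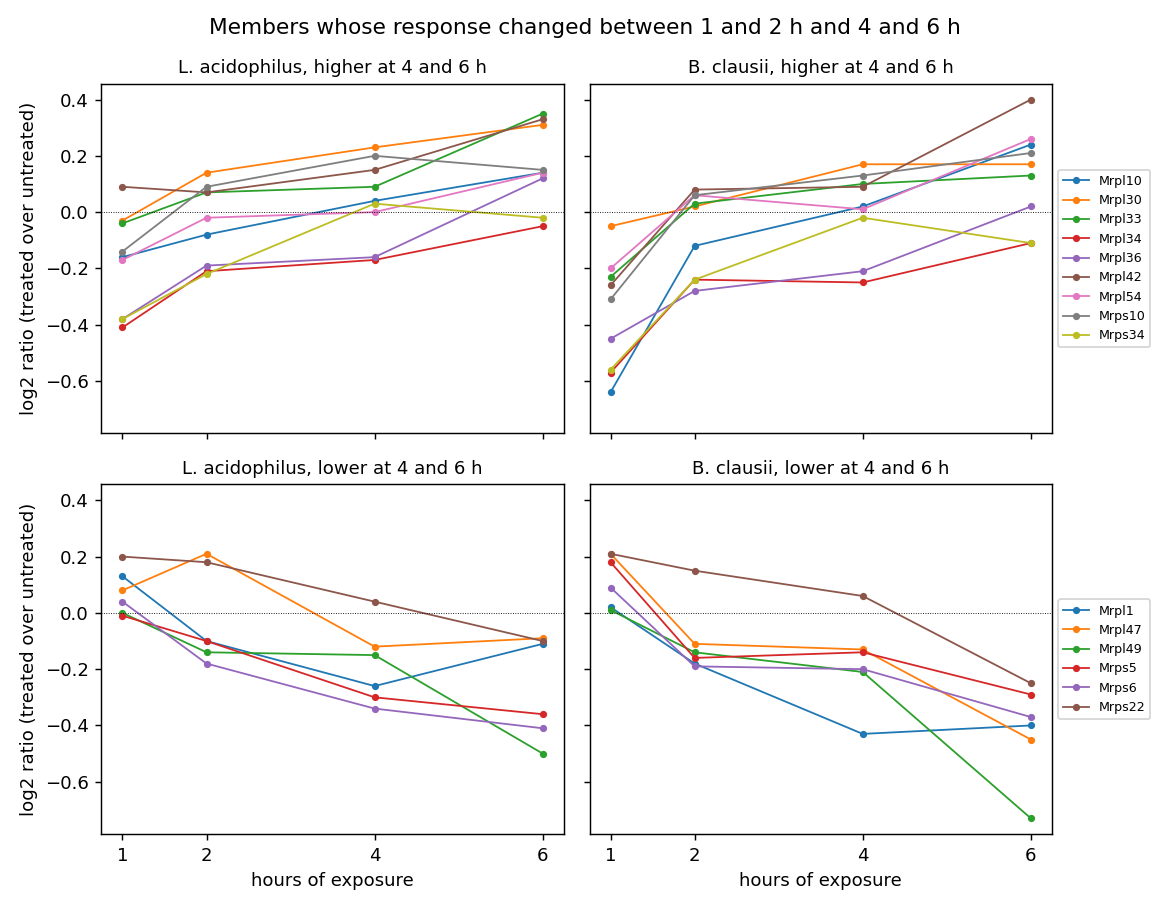
Log2 ratio of treated over untreated signal (vertical axis) against hours of exposure (horizontal axis) for the 9 members that were higher at 4 and 6 h than at 1 and 2 h (upper panels) and the 6 that were lower (lower panels), with 1 array per point. L. acidophilus is on the left and B. clausii on the right; in the upper panels the 1 h values are mostly the lowest, down to -0.64, and in the lower panels Mrpl49 reaches -0.73 at 6 h.

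Among those higher late, Mrpl10 read -0.16, -0.08, 0.04 and 0.14 with L. acidophilus, against -0.64, -0.12, 0.02 and 0.24 with B. clausii, a late minus early difference of 0.36 ± 0.092 (adjusted p = 0.0227). It went from below to above 0 in both courses. Mrps34, needed for a stable small subunit, read -0.38, -0.22, 0.03 and -0.02, then -0.56, -0.24, -0.02 and -0.11, a difference of 0.32 ± 0.058 (adjusted p = 0.00549). Its early values were low and its late values close to 0. Mrpl36, one of the smallest large subunit proteins, read -0.38, -0.19, -0.16 and 0.12, then -0.45, -0.28, -0.21 and 0.02, a difference of 0.27 ± 0.054 (adjusted p = 0.00867). In it only the 6 h arrays were above 0. The other 6 were Mrpl42 (0.25), Mrps10 (0.25), Mrpl34 (0.22), Mrpl33 (0.21), Mrpl30 (0.20) and Mrpl54 (0.19), with adjusted p from 0.0182 to 0.045. By the processed signals Mrpl33 read -0.03 and Mrpl42 just under 0 at -0.00.

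Among the 6 that were lower late, Mrpl49 read 0.00, -0.14, -0.15 and -0.50 with L. acidophilus, against 0.01, -0.14, -0.21 and -0.73 with B. clausii, a difference of -0.33 ± 0.063 (adjusted p = 0.00713). The 1 h ratios were at or next to 0, and the 6 h array was the lowest in both courses. This was the brightest probe; a second gave a difference of -0.06, reading -0.08, -0.37, -0.34 and -0.26, then -0.24, -0.54, -0.44 and -0.42, and so was not lowest at 6 h. A further probe, without a value at 1 h of L. acidophilus, read -0.01 and 0.03 at 6 h. The mean over probes was -0.19 (adjusted p = 0.0301). Mrps6 read 0.04, -0.18, -0.34 and -0.41, then 0.09, -0.19, -0.20 and -0.37, a difference of -0.27 ± 0.057 (adjusted p = 0.0103). Mrpl1, whose bacterial counterpart forms the mobile stalk by which spent transfer RNA leaves, differed by -0.27 ± 0.06 (adjusted p = 0.0132), Mrps22 by -0.25 ± 0.059 (0.0164) and Mrps5 by -0.25 ± 0.063 (0.021). For Mrps5 2 dimmer probes gave 0.13 and 0.05, and the mean over probes was -0.02 and did not pass (adjusted p = 0.769). Mrpl47, at the tunnel exit, differed by -0.30 ± 0.089 (adjusted p = 0.0401) by its brightest probe and by 0.42 by its second, so that the mean over probes was 0.06. In 15 of the 25 members with several probes the late minus early differences of the probes had opposite signs.

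Whether the time course differed between bacteria was asked with a bacterium by phase term. No member passed (0 of 76 in limma; 0% of all genes did, and 1.19% at an unadjusted p under 0.05, among them 0 members). The widest gap was that of Mrps28, a small subunit protein with 1 probe past the filter. It read 0.06, -0.12, -0.16 and 0.76 with L. acidophilus, against -0.01, -0.11, -0.12 and -0.64 with B. clausii. At 1 to 4 h the courses were alike, and at 6 h they held the highest L. acidophilus value of any member and one of the lowest B. clausii values. Before the colours were balanced, its untreated signal at 6 h was 14957 on the L. acidophilus array and 14446 on the B. clausii array, and its treated signal 19418 and 5666. The term was -0.65 ± 0.36 (adjusted p = 1), and without both 4 h arrays it was the 1 member called, at -1.37 ± 0.2 (adjusted p = 0.0457). In that fit a lone 6 h array stands for the late phase of each bacterium and is assumed to vary as the 1 and 2 h arrays do, so the call says nothing of the spread at 6 h. Mrpl15 parted in the same way at 6 h, at 0.40 and -0.55 by its brightest probe, and at 0.24 and -0.07 by its second. With 1 array for each bacterium and time, these 6 h values have no replicate.

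Other genes of mitochondrial translation moved in both directions. Of 7 mitoribosomal proteins under other names, 1 was higher and 0 lower with L. acidophilus, namely Chchd1 (0.32 ± 0.046), and 1 was higher and 2 lower with B. clausii. Among 15 translation factors 4 were lower and 2 higher with L. acidophilus, against 8 and 2 with B. clausii. Tsfm, the exchange factor of mitochondrial elongation factor Tu, fell with both, at -0.41 ± 0.039 and -0.39 ± 0.039 (adjusted p = 0.000202 and 0.000137), and Tufm, that elongation factor, at -0.23 ± 0.052 and -0.26 ± 0.052 (adjusted p = 0.00806 and 0.00406). Of 24 measured assembly and ribosomal RNA factors, 6 were lower and 6 higher with L. acidophilus, against 9 and 2 with B. clausii. Noa1, a GTPase needed for mitochondrial translation, had the lowest values there, -0.52 ± 0.039 and -0.46 ± 0.039 (adjusted p = 8.33e-05 and 5.87e-05). Of 7 measured genes of mitochondrial transcription 2 were lower and 0 higher with L. acidophilus, against 3 and 1 with B. clausii, where Polrmt, the RNA polymerase, read 0.33 ± 0.057 (adjusted p = 0.00191) and Tfam, which packages mitochondrial DNA, -0.26 ± 0.048 (adjusted p = 0.00243). Mterf3 and Mterf1a were not measured. Among all genes, the share called lower was 18.5% in the L. acidophilus mean and 21.1% in the B. clausii mean. The share called higher was 23.7%, then 23.1%. Translation factors were lower in 26.7%, then 53.3%, and higher in 13.3% both times. Assembly factors were lower in 25%, then 37.5%, and higher in 25%, then 8.33%. The L. acidophilus shares of the assembly factors were thus near the background. Lists of 7 genes are too short for such shares to be read. In the late minus early comparison, 3 and 2 of the proteins under other names, 2 and 5 of the translation factors, 3 and 5 of the assembly factors and 2 and 0 of the transcription genes were higher and lower. The largest were Mrm1, a methyltransferase of mitochondrial ribosomal RNA, at 0.59 ± 0.084 (adjusted p = 0.0021), and Fastkd2, at -0.50 ± 0.056 (adjusted p = 0.000745). Of the genes named above by their means, Chchd1 (-0.41 ± 0.065), Tufm (-0.38 ± 0.073) and Tsfm (-0.21 ± 0.056) were also called lower late. Tfam was called higher late (0.36 ± 0.067), and Noa1 and Polrmt did not pass. Late minus early, 12.3% of all genes were called higher and 12.3% lower. The assembly factors had 12.5% higher, near that background, and 20.8% lower. The translation factors had 13.3% higher and 33.3% lower. No difference between these lists and all genes was tested.

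The same was counted in 2 large groups whose products meet those of the members. Of 78 cytosolic ribosomal protein genes 59 were higher and 5 lower with L. acidophilus (median 0.31), and 57 and 5 with B. clausii (median 0.27). By the processed signals, these medians were 0.06 and 0.07, with 24 higher and 9 lower, then 28 and 13, while the members had medians of -0.07 and -0.08. With each array centred on its median the cytosolic group stayed mostly higher with L. acidophilus (51 higher, 5 lower, median 0.35) but not with B. clausii (17 and 22, median -0.05). That centring put the median of all genes at -0.08 and -0.25. The cytosolic median thus stayed above that of all genes with either bacterium. Of 81 subunits of oxidative phosphorylation, the complexes whose core subunits the mitochondrial ribosome makes, 24 were higher and 16 lower with L. acidophilus (median 0.01), and 18 and 23 with B. clausii (median -0.05); by the processed signals 5 were higher and 20 lower, then 5 and 24. Centred on each array's median they moved down with B. clausii as the members did, with 1 higher and 68 lower (median -0.43), and 16 and 25 with L. acidophilus. In that group Cox6a1 was higher with both (0.46 ± 0.039 and 0.54 ± 0.039) and Sdhb lower (-0.39 ± 0.04 and -0.41 ± 0.04). No difference between the members and these groups was tested.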

How the data were processed

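The authors scanned 8 two-colour Agilent arrays of mouse genes and deposited Feature Extraction files (version 10.7.3.1 per the file headers, 10.5.1.1 per the submitters' processing notes) with red and green intensity, local background and flags for each spot. Each deposited file also holds processed signals, whose log ratio is log10 of red over green; the deposited series matrix gives these log10 ratios rounded. The labels give Cy5 (red) as treated on all 8 arrays, with no dye swap. Probe positions are on mm9, per the file headers.

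From the deposited intensities, background was corrected with limma's normexp (offset 50), after local backgrounds flagged and above 3 times the array's median were replaced. Loess was fitted within each array, and flagged spots (0.473% to 0.89% per array) and controls were left out. Repeated spots were averaged, probes well above background in a channel on at least 2 arrays were kept (21629 of 41174) and the brightest probe stood for a gene. limma (3.58.1, R 4.3.3) fitted log2 ratios with terms for bacterium and time (3 residual degrees of freedom), and for the 4 combinations of bacterium and phase (4 residual degrees of freedom). Benjamini-Hochberg adjustment ran over all 14806 genes, with a threshold of 0.05. The pipeline was tested on simulated data.

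The members and lists were chosen with earlier results of these data known. Named in the text are, for each comparison, up to 8 called members with the largest change in each direction, or the smallest p where none passed. Also named are members past a fold on single arrays, those whose probes disagree by 0.5 or more, and called genes of the other lists. Promoter sequences are from RefSeq (GRCm38.p6). The number of arrays limits the precision. Alternatives covered background, normalization, filter, probe choice, model terms and left-out arrays.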

Additional observations from a re-analysis of the deposited data

Results flagged for a closer look

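A difference between early and late exposure, tested in the limma fit over both bacteria, marks 15 of 76 members, in a comparison that marked 24.6% of all genes, so the count is not above the background. Those higher at 4 and 6 h than at 1 and 2 h were Mrpl10 (0.36), Mrps34 (0.32), Mrpl36 (0.27), Mrpl42 (0.25), Mrps10 (0.25), Mrpl34 (0.22), Mrpl33 (0.21), Mrpl30 (0.20) and Mrpl54 (0.19), in log2 units. Those lower were Mrpl49 (-0.33), Mrpl47 (-0.30), Mrpl1 (-0.27), Mrps6 (-0.27), Mrps5 (-0.25) and Mrps22 (-0.25). Other probes of Mrpl47 and Mrps5 gave the opposite sign. One more member, Mrpl43, had log2 ratios above 0 on all 4 L. acidophilus arrays and below 0 on all 4 B. clausii arrays. How many of all genes did so was not counted. Its difference of 0.20 did not pass in limma (adjusted p = 0.116), and its second probe did not show the split.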

How the results depend on the processing

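The direction of the mean responses held: members called lower outnumbered those called higher under every one of the alternatives run for either bacterium. Counts of calls moved more. For L. acidophilus (34 called) 21 were called with local background as deposited, 18 with no time term, 21 without both 4 h arrays and 14 to 39 with single arrays left out, 14 of them without the 4 h array of L. acidophilus, 20 without its 2 h array and 21 without its 1 h array. For B. clausii (42 called) 76 were called with median centring, 22 with no time term, 27 without both 4 h arrays and 24 to 45 with single arrays left out, 24 each without its 2 h or 4 h array. Between the bacteria (0 called) there were 58 with median centring and 1 at an adjusted p under 0.1. The bacterium by phase term (0 called) gave 1 without both 4 h arrays. Late minus early (15 called) was the least stable: 1 by processed signals, 1 by the series matrix, 1 with no time term, 4 with no offset, 5 with local background as deposited, 9 without a filter on dim probes, 24 among genes detected in both channels on all 8 arrays, 30 at an adjusted p under 0.1, 0 without both 1 h arrays, 2 without both 6 h arrays and 3 to 22 with single arrays left out (3 without either 4 h array, 4 without the 2 h array of L. acidophilus or the 1 h array of B. clausii, 5 without the 2 h array of B. clausii). On single arrays (0 members at 2-fold) there were 8 at 1.5-fold and 29 at 2-fold with median centring. In each of these comparisons, the bacterium by phase term included, that centring moved the median of all genes the same way as that of the members. Its counts therefore cannot be read as particular to the members. For the other settings the shares of all genes are not given beside the counts. Those changes in count cannot be read as particular to the members either.

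Called values that changed sign were these. With median centring, B. clausii means became -0.23 for Mrpl14, -0.31 for Mrpl17, -0.33 for Mrpl4, -0.28 for Mrpl50 and -0.27 for Mrps24, and L. acidophilus means -0.05 for Mrpl32 and -0.01 for Mrps24. By processed signals and by the series matrix, Mrpl14 read -0.03 with either bacterium, and late minus early Mrpl33 read -0.03 and Mrpl42 -0.00. By the mean over probes, Mrpl52 read 0.11 with L. acidophilus, Mrpl50 -0.12 with B. clausii and Mrpl47 0.06 late minus early. The cause was not tested. No replicate block could be fitted, since the labels give no replicate numbers; the times that the bacteria share are a term of the model, and its removal is given above.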
